A study of Mus musculus with 6 samples.

Results

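Genes of the ATF4 amino acid response and of cytosolic tRNA charging were examined in NCI-H2228 tumours, grown from a human lung adenocarcinoma line with an EML4-ALK fusion. The set holds 34 genes chosen by symbol from what is known of the pathway, with earlier results of these data known. These are 12 tRNA synthetases, 7 transcription factors, 7 enzymes of amino acid synthesis and one-carbon metabolism, 4 amino acid transporters and 4 other stress effectors. Each gene was read from the brightest probe set assigned to it alone, and 31 of the set, among 10271 genes tested of 19775 on the whole array, had a mean log2 intensity of at least 4 over the 6 arrays. CHAC1, which degrades glutathione, and ALDH1L2, a mitochondrial folate enzyme, lay under this filter at mean log2 levels of 2.19 and 3.24, and MARS1, the methionyl-tRNA synthetase, had no probe set assigned to it alone.

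The cells were grown under the skin of SCID mice, which lack mature T and B lymphocytes. Mice were dosed orally with vehicle or with the ALK kinase inhibitor CH5424802, later named alectinib, at 4 or 20 mg/kg, and tumours were taken 6 h afterwards. Each of the 3 groups has 2 arrays. It is not stated that these are tumours of different mice, so the p-values cover the spread between arrays alone, which may be technical. In whole tumours fewer cells and less RNA per cell cannot be told apart.

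ATF4 is a transcription factor that cells make when the initiation factor eIF2 is phosphorylated, by GCN2 when amino acids run short, by PERK when unfolded proteins build up in the endoplasmic reticulum, or by other stress kinases. This phosphorylation slows general translation but favours translation of the ATF4 transcript, so ATF4 protein can change without its RNA. With partners of the C/EBP family it induces genes that make, import and charge amino acids, together with feedback and death regulators, and several tRNA synthetase genes are among its known targets.

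All 10 epithelial markers were measured above the filter, and KRT18 was the 1 among them that passed the test at 20 mg/kg against vehicle (log2 -1.54, limma adjusted p = 0.0416). The log2 changes of the 10 ran up to 0.50, and 5 had an unadjusted p under 0.05 (50%, beside 24.2% of all genes). Their summed intensity was 90270 and 97258 at 20 mg/kg, against 100756 and 112246 with vehicle. Of 9 fibroblast markers 6 passed the filter and PDGFRB and THY1 were at the floor, with sums of 36303 and 40669 at 20 mg/kg against 36940 and 39754 with vehicle. VWF, TEK and EMCN, of 6 endothelial markers, and CD163, of 7 macrophage and leukocyte markers, were at the floor in every array. The endothelial sums were 515 and 506 at 20 mg/kg against 506 and 556 with vehicle, and the macrophage and leukocyte sums 128 and 128 against 130 and 132. No marker of these 3 lists passed the test in any comparison. The array carries human probe sets and the host cells are of the mouse. The lists therefore describe what the array reads, and do not measure host cell content. The 5′ probe set for 18S ribosomal RNA gave intensities of 1713 and 4058 (vehicle), 489 and 374 (4 mg/kg) and 573 and 637 (20 mg/kg). Vehicle replicate 2, the highest, also lay furthest out among the vehicle arrays on the first principal component (-34.8, against -18.9 for vehicle replicate 1). The part of these differences in the comparisons with vehicle was not tested.

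The comparison of 20 mg/kg with vehicle shows whether genes of this stress response differed after the higher dose of the ALK inhibitor. STC2, which encodes the secreted glycoprotein stanniocalcin 2 and is induced by endoplasmic reticulum stress, fell, and no other gene of the set passed the test. That is 1 of 31 (3.23%), beside 4.33% of all genes tested. At an unadjusted p under 0.05 stood 5 of the 31 (16.1%), beside 24.2%. The median log2 change was -0.02 for the 31 genes and 0.00 for all genes, and 26 of the 31 (83.9%) differed by less than 1.5-fold, as did 83.4% of all genes. The arrays of the groups did not overlap in 6 genes that were higher at 20 mg/kg (19.4%, beside 24.5% of all genes) and in 10 that were lower (32.3%, beside 25.9%).

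**Figure D1:**
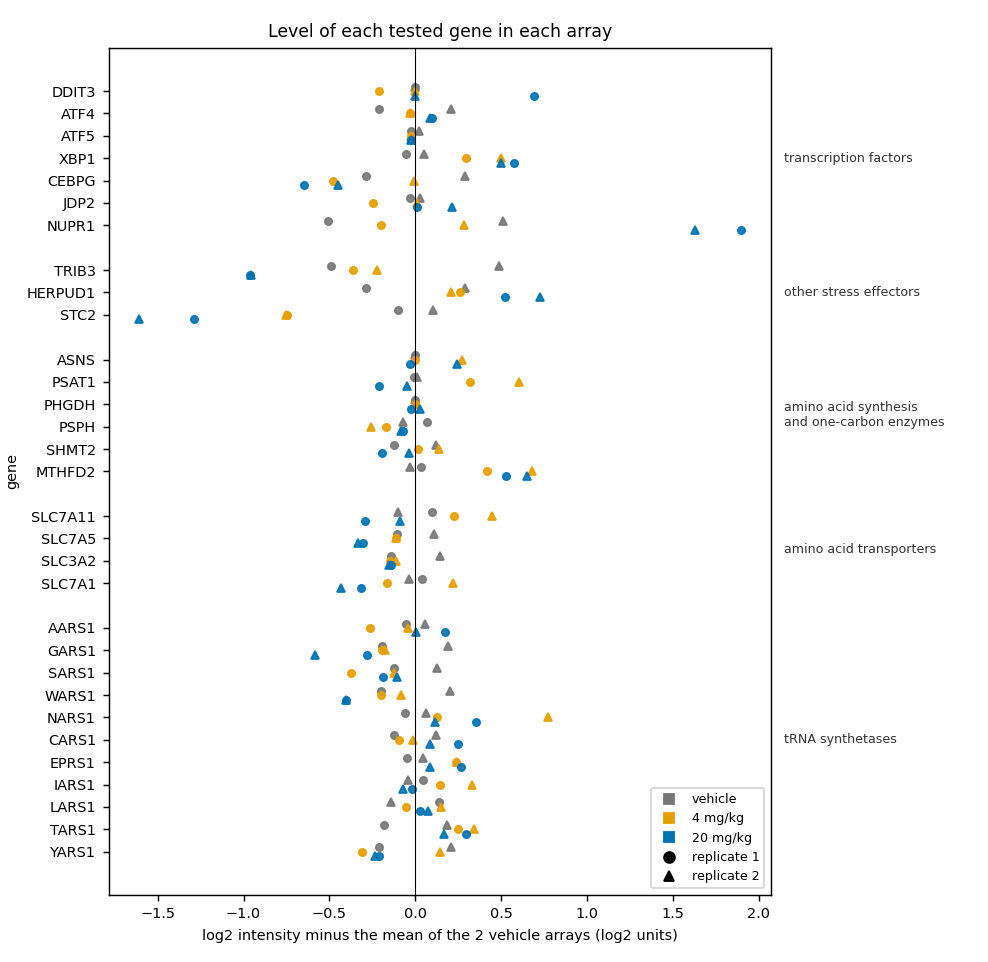
Log2 intensity of each of the 31 tested genes (down the page, by role) in each of the 6 arrays, drawn as the difference from the mean of that gene's 2 vehicle arrays; colours mark the dose and marker shapes the replicate number. STC2 stands to the left and NUPR1 to the right at 20 mg/kg, while the synthetases spread less.

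Among the other stress effectors, STC2 had log2 levels of 9.43 and 9.64 (vehicle), 8.78 and 8.78 (4 mg/kg) and 8.24 and 7.92 (20 mg/kg). The groups follow the order of the doses without overlap. At 20 mg/kg it was 2.73-fold lower than with vehicle (log2 -1.45, SE 0.14, 95% interval -1.85 to -1.04, limma adjusted p = 0.0333, 2 arrays per group). Its next brightest probe set had 8.56 and 8.12 (vehicle), 7.71 and 7.85 (4 mg/kg) and 6.50 and 6.19 (20 mg/kg), a difference of -1.99 between 20 mg/kg and vehicle. The call was lost when any 1 of the 6 arrays was left out (log2 -1.61 to -1.29), with a replicate block (limma adjusted p = 0.0755), in the 4 compared arrays alone (limma adjusted p = 0.0960) and with no level filter (limma adjusted p = 0.111), while the direction held in each.

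TRIB3, a pseudokinase that ATF4 and CHOP induce and that binds AKT, had log2 levels of 10.52 and 11.50 (vehicle), 10.65 and 10.79 (4 mg/kg) and 10.05 and 10.06 (20 mg/kg). Both 20 mg/kg arrays lay below every other array, but the vehicle arrays differed from each other by about as much as the groups. The log2 change of -0.96 (SE 0.36) did not pass (limma adjusted p = 0.232). It was -1.45 without vehicle replicate 1, which passed (limma adjusted p = 0.0287), and -0.47 without vehicle replicate 2. The second probe set of TRIB3, near the filter at a mean log2 level of 4.76, differed by -0.07. HERPUD1, a membrane protein of endoplasmic reticulum-associated degradation, stood the other way, at 12.33 and 12.53 for 20 mg/kg against 11.52 and 12.09 for vehicle (log2 0.62, SE 0.22, limma adjusted p = 0.216). Its difference was 0.34 without vehicle replicate 1 and 0.91 without vehicle replicate 2. CHAC1 was at the floor of the array in all 6.

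**Figure D2:**
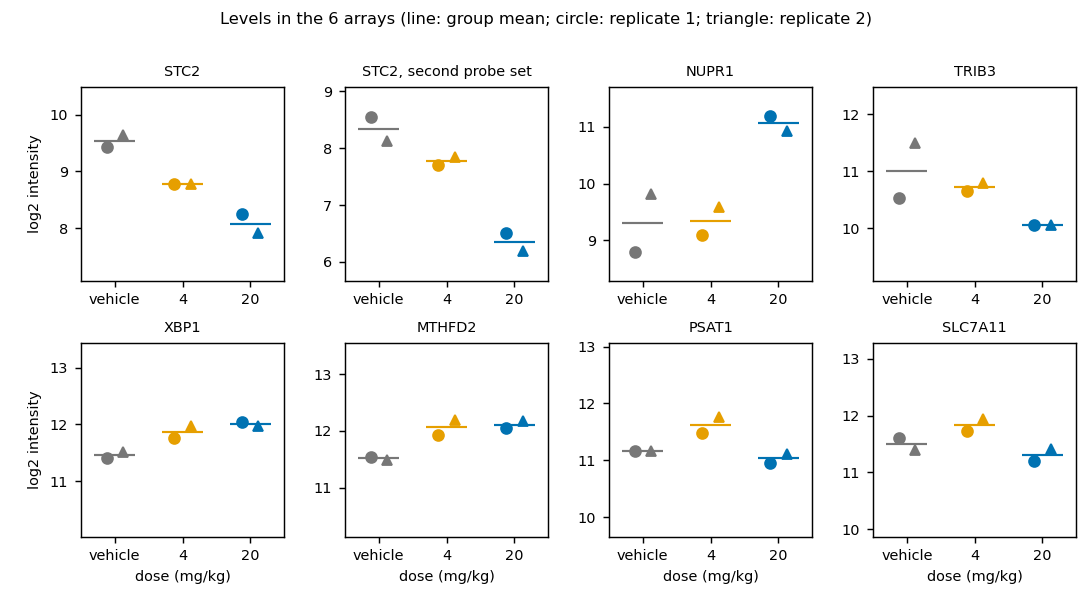
Log2 intensity in the 6 arrays for STC2 (brightest and second probe set), NUPR1, TRIB3, XBP1, MTHFD2, PSAT1 and SLC7A11, by dose in mg/kg, with a line at each group mean. STC2 is lowest at 20 mg/kg on both probe sets, NUPR1 is highest there, and PSAT1 and SLC7A11 are highest at 4 mg/kg.

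Among the transcription factors ATF4 itself had log2 levels of 12.39 and 12.81 (vehicle), 12.56 and 12.56 (4 mg/kg) and 12.69 and 12.68 (20 mg/kg). All 4 treated arrays lay between the vehicle arrays. The log2 change at 20 mg/kg was 0.09, with a 95% interval from -0.35 to 0.54 that leaves out a 2-fold change in either direction. It was -0.12 without vehicle replicate 1 and 0.30 without vehicle replicate 2, and leaving out vehicle replicate 1 also made ATF4 pass as lower at 4 mg/kg than in the remaining vehicle array. DDIT3, or CHOP, a factor of stress-induced cell death, had 7.02 and 7.02 (vehicle), 6.81 and 7.02 (4 mg/kg) and 7.72 and 7.02 (20 mg/kg), so a single array was high. Its difference of 0.35 at 20 mg/kg was 0.00 without 20 mg/kg replicate 1, but 0.69 when replicate 2 of that dose was left out. ATF5, a relative of ATF4 with the same kind of translational control, lay between 5.61 and 5.66 in all 6 arrays.

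NUPR1, a small stress-induced chromatin protein, differed most of the set between 20 mg/kg and vehicle. Its log2 levels were 8.79 and 9.81 (vehicle), 9.10 and 9.58 (4 mg/kg) and 11.19 and 10.93 (20 mg/kg). Both 20 mg/kg arrays lay above all the others, and the 4 mg/kg arrays lay between the vehicle arrays. The difference of 3.39-fold against vehicle (log2 1.76, SE 0.42, 95% interval 0.55 to 2.97) did not pass (limma adjusted p = 0.117), nor did that of 3.30-fold against 4 mg/kg (log2 1.72, limma adjusted p = 0.234). Against vehicle it was 1.25 without vehicle replicate 1 and 2.27 without vehicle replicate 2. It passed after a further quantile normalization (limma adjusted p = 0.0279) and with arrays centred on their medians (limma adjusted p = 0.00605). Under these 2 settings 1536 and 1958 of 10271 genes passed at 20 mg/kg against vehicle, beside 445 in the main fit.

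XBP1, the factor whose transcript the stress sensor IRE1 splices, had 11.42 and 11.52 (vehicle), 11.76 and 11.97 (4 mg/kg) and 12.04 and 11.97 (20 mg/kg). It was the 1 gene of the set with levels in rising dose order and no overlap, as 4.61% of all genes had, although the closest 4 and 20 mg/kg arrays are equal to 2 decimals. Its log2 change of 0.54 (SE 0.09) at 20 mg/kg did not pass (limma adjusted p = 0.0709), but did after a further quantile normalization (limma adjusted p = 0.0104) and with centred arrays (limma adjusted p = 0.0219). CEBPG, a C/EBP protein that pairs with ATF4, had 8.82 and 9.02 at 20 mg/kg against 9.19 and 9.76 with vehicle (log2 -0.55, SE 0.28, limma adjusted p = 0.361). The difference was -0.84 without vehicle replicate 1 and -0.26 without vehicle replicate 2. Its second probe set differed by 0.22, the other way. JDP2, a repressor at AP-1 sites, lay between 10.10 and 10.56 in the 6 arrays, and its 20 mg/kg and vehicle arrays overlapped.

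Of the 6 measured enzymes of amino acid synthesis and one-carbon metabolism none passed. MTHFD2, the mitochondrial folate enzyme downstream of serine, had log2 levels of 11.55 and 11.49 (vehicle), 11.94 and 12.20 (4 mg/kg) and 12.05 and 12.17 (20 mg/kg). Every treated array lay above both vehicle arrays. The log2 change was 0.59 (SE 0.11, limma adjusted p = 0.0820) at 20 mg/kg, and 0.55 (limma adjusted p = 0.171) at 4 mg/kg against the same vehicle arrays. Neither passed, although that at 20 mg/kg did after a further quantile normalization (limma adjusted p = 0.0150) and with centred arrays (limma adjusted p = 0.0123).

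PHGDH, which starts serine synthesis from a glycolytic intermediate, lay between 8.20 and 8.26 in all 6 arrays. SHMT2, which turns serine into glycine in mitochondria, lay between 8.47 and 8.80. The second probe set of SHMT2 had 8.42 and 8.82 (vehicle), 8.09 and 8.68 (4 mg/kg) and 8.03 and 8.36 (20 mg/kg). It differed by -0.42 between 20 mg/kg and vehicle, against -0.12 for the brightest. ASNS, the asparagine synthetase, had 5.77 and 5.77 (vehicle), 5.77 and 6.04 (4 mg/kg) and 5.74 and 6.01 (20 mg/kg). Its groups overlap. Equal values in both arrays of at least 1 group occur in 5 of the 31 genes, beside 32.3% of all genes tested. These are PHGDH, ASNS, DDIT3, ATF5 and SLC7A5. Such ties make an SE smaller than independent readings would. An identical value also recurs between groups, at 8.23 in PHGDH, 5.77 in ASNS, 7.02 in DDIT3 and 5.61 in ATF5. The same holds, without a tie inside a group, at 10.43 in WARS1, 11.63 in SARS1, 10.09 in SLC3A2 and 10.36 in JDP2. Equal readings there may not mean equal RNA levels.

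PSAT1, the aminotransferase of serine synthesis, had 11.16 and 11.17 (vehicle), 11.48 and 11.77 (4 mg/kg) and 10.96 and 11.12 (20 mg/kg). Both 4 mg/kg arrays lay above the other 4. Its log2 changes were 0.46 at 4 mg/kg against vehicle (SE 0.12, limma adjusted p = 0.217) and -0.59 at 20 against 4 mg/kg (SE 0.12, limma adjusted p = 0.186). The difference between the doses passed after a further quantile normalization (log2 -0.53, limma adjusted p = 0.0388) and with centred arrays (log2 -0.52, limma adjusted p = 0.0428). Over all genes 333 and 494 passed in these fits, beside 38 in the main fit. A second probe set of PSAT1 lay between 9.48 and 9.53 in all arrays. PSPH, the phosphatase of the same pathway, had 12.55 and 12.46 at 4 mg/kg against 12.79 and 12.65 with vehicle (log2 -0.21, limma adjusted p = 0.243). Its second probe set had 9.65 and 9.66 at 4 mg/kg against 9.05 and 8.65 with vehicle, so the probe sets of this gene disagree in direction. They also disagree at 20 mg/kg against vehicle, with -0.08 for the brightest and 0.55 for the second, which had 9.23 and 9.55 there.

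The 4 amino acid transporters had log2 changes from -0.37 to -0.15 at 20 mg/kg against vehicle, with a median of -0.26, and none passed. SLC7A5, the light chain of the transporter for large neutral amino acids, had 9.71 and 9.92 (vehicle), 9.70 and 9.70 (4 mg/kg) and 9.51 and 9.48 (20 mg/kg). With STC2 it was 1 of 2 genes of the set in falling dose order without overlap, as 5.24% of all genes were. Its log2 change of -0.32 (SE 0.08, limma adjusted p = 0.128) was -0.43 without vehicle replicate 1, which passed (limma adjusted p = 0.0281), and -0.21 without vehicle replicate 2. SLC3A2, the heavy chain that carries SLC7A5 to the membrane, had 10.09 and 10.37 (vehicle), 10.08 and 10.11 (4 mg/kg) and 10.09 and 10.08 (20 mg/kg), with vehicle replicate 2 above the other 5 arrays, and it passed at 20 mg/kg against that array alone. SLC7A1, which imports arginine and lysine, had 9.43 and 9.31 at 20 mg/kg, against 9.78 and 9.71 with vehicle (log2 -0.37, SE 0.15, limma adjusted p = 0.254).

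SLC7A11, the cystine importer, had 11.60 and 11.40 (vehicle), 11.73 and 11.94 (4 mg/kg) and 11.20 and 11.41 (20 mg/kg). Like PSAT1 it was highest at 4 mg/kg, with log2 changes of 0.34 against vehicle (limma adjusted p = 0.341) and -0.53 for 20 against 4 mg/kg (SE 0.13, limma adjusted p = 0.239). Its second probe set had differences of 0.57 and -0.49 in these comparisons. The third had 7.85 and 8.12 (vehicle), 6.98 and 7.44 (4 mg/kg) and 7.10 and 7.02 (20 mg/kg), so it was lower at both doses than with vehicle.

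**Figure D3:**
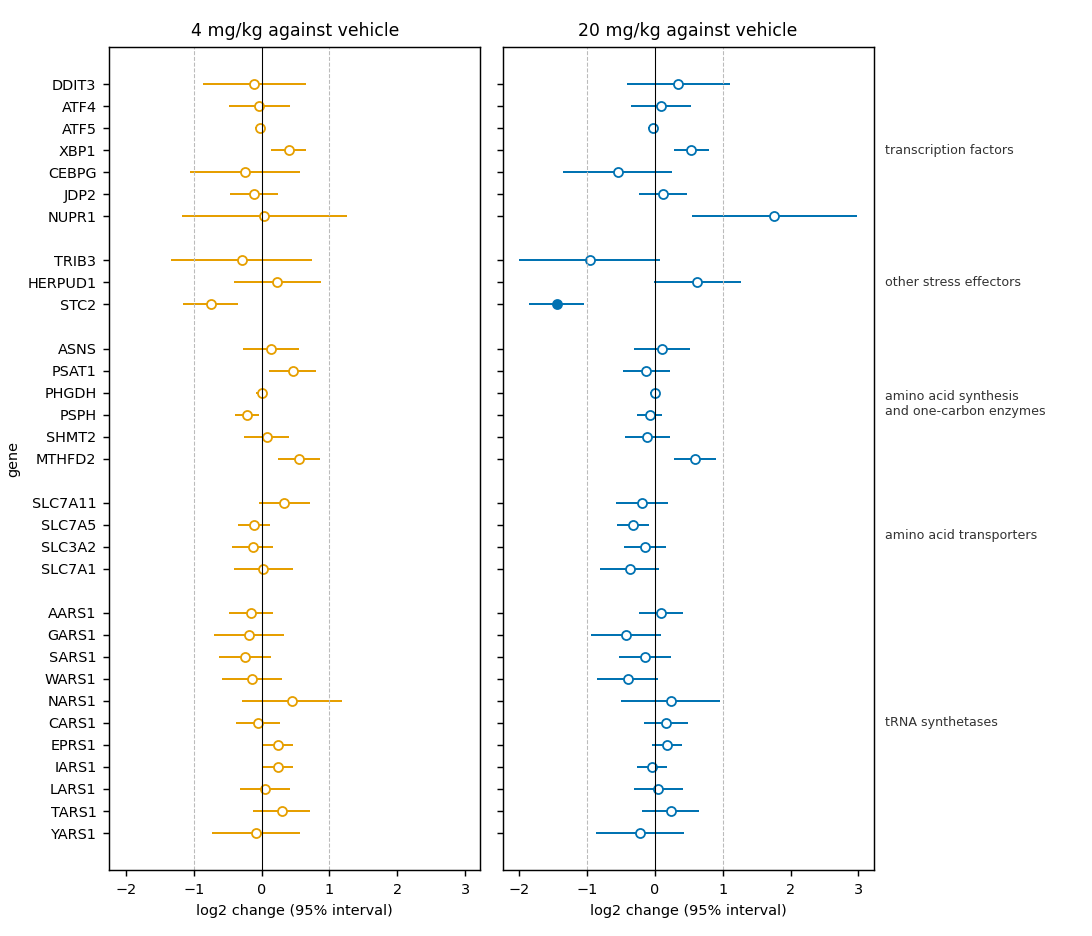
Log2 change with its 95% interval for each of the 31 tested genes at 4 mg/kg (left) and 20 mg/kg (right) against the same 2 vehicle arrays; a filled point passed the test at an adjusted p of 0.05, and dashed lines mark a 2-fold change. STC2 at 20 mg/kg is the single filled point, and the intervals of all 11 synthetases at 20 mg/kg lie between the dashed lines.

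None of the 11 measured tRNA synthetases passed limma's test at 20 mg/kg, beside 4.33% of all genes, and 0 had an unadjusted p under 0.05, beside 24.2%. Their log2 changes ran from -0.43 to 0.23 with a median of 0.05. The 95% intervals of all 11 left out a change of 2-fold or more, as 76.9% of the intervals of all genes did. GARS1, for glycine, had 12.41 and 12.10 at 20 mg/kg against 12.49 and 12.88 with vehicle (log2 -0.43, SE 0.18, limma adjusted p = 0.270). WARS1, for tryptophan, had 10.23 and 10.23 at 20 mg/kg against 10.43 and 10.84 with vehicle (log2 -0.40, SE 0.16, limma adjusted p = 0.241). In both genes vehicle replicate 2 was the highest array, and without it the differences were -0.24 in GARS1 and -0.20 in WARS1. Without vehicle replicate 1 they were -0.62 in GARS1 and -0.60 in WARS1, and GARS1 was at -0.28 without 20 mg/kg replicate 2.

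EPRS1, which charges tRNAs for glutamate and proline, stood the other way, at 11.20 and 11.02 for 20 mg/kg against 10.89 and 10.98 for vehicle (log2 0.18, SE 0.08, limma adjusted p = 0.287), and its second probe set differed by 0.04. The brighter one was at 0.086 without 20 mg/kg replicate 1, but 0.27 when replicate 2 of that dose was left out. NARS1, for asparagine, had 11.49 and 11.61 (vehicle), 11.68 and 12.32 (4 mg/kg) and 11.90 and 11.67 (20 mg/kg), with 4 mg/kg replicate 2 above the other 5 arrays. YARS1, for tyrosine, had 8.38 and 8.36 at 20 mg/kg against 8.39 and 8.81 with vehicle. In these 5 genes the 20 mg/kg and vehicle arrays did not overlap, and in the other 6 synthetases, AARS1, SARS1, CARS1, IARS1, LARS1 and TARS1, they did. Of the 11, 2 were higher without overlap (18.2%, beside 24.5% of all genes) and 3 lower (27.3%, beside 25.9%). The log2 changes of these 6 lay between -0.15 in SARS1 and 0.23 in TARS1.

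For 4 mg/kg against vehicle, no gene of the 31 passed limma's test, beside 0.0584% of all genes, and 7 of the 31 (22.6%) had an unadjusted p under 0.05, beside 17.0% of all genes. The arrays did not overlap in 8 genes that were higher at 4 mg/kg (25.8%, beside 22.8%) and 3 that were lower (9.68%, beside 14.8%). The median log2 change was -0.02, beside 0.00 over all genes, and the values ran from -0.75 in STC2 (SE 0.14, limma adjusted p = 0.170) to 0.55 in MTHFD2. STC2 was called at this dose with centred arrays (log2 -0.85, limma adjusted p = 0.0275). XBP1 was at 0.40 (SE 0.09, limma adjusted p = 0.193), EPRS1 at 0.24 (limma adjusted p = 0.264) and IARS1, for isoleucine, at 0.23 (limma adjusted p = 0.286, and 0.14 without 4 mg/kg replicate 2). The second probe set of EPRS1 was at -0.037. NUPR1 and TRIB3 had 4 mg/kg arrays within the range of the vehicle arrays.

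Between 20 and 4 mg/kg again no gene of the 31 passed limma's test, beside 0.370% of all genes, and 5 (16.1%) had an unadjusted p under 0.05, beside 13.4%. The arrays did not overlap in 7 genes that were higher at 20 mg/kg (22.6%, beside 13.6%) and 10 that were lower (32.3%, beside 22.8%). The lowest p-values of the set were those of STC2 (log2 -0.70, SE 0.14, limma adjusted p = 0.185) and PSAT1. IARS1 had 12.60 and 12.55 at 20 mg/kg against 12.76 and 12.94 at 4 mg/kg (log2 -0.28, SE 0.08, limma adjusted p = 0.288), and -0.19 without 4 mg/kg replicate 2. With PSAT1 and SLC7A11 it made up the 3 genes of the set whose 4 mg/kg arrays lay above all 4 others, as 8.24% of all genes did. PSPH was the 1 gene whose 4 mg/kg arrays lay below all others, as 2.85% of all genes did.

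Other genes of the pathway were read from lists made by function, also with earlier results of these data known. Of 17 measured further ATF4 target genes 3 passed as lower at 20 mg/kg against vehicle (17.6%, beside 4.33% of all genes called). None passed as higher and 14 did not pass. The median log2 change was -0.07, and the values ran from -1.04 to 1.35. Arrays did not overlap in 3 genes that were higher (17.6%, beside 24.5% of all genes) and 6 that were lower (35.3%, beside 25.9%). GDF15, a secreted stress cytokine, had 13.34 and 13.50 (vehicle), 12.97 and 12.85 (4 mg/kg) and 12.35 and 12.42 (20 mg/kg), a log2 change of -1.04 at 20 mg/kg (SE 0.08, limma adjusted p = 0.0246). ALDH18A1, an enzyme of proline synthesis, had 8.85 and 8.84 at 20 mg/kg against 9.55 and 9.49 with vehicle (log2 -0.67, SE 0.05, limma adjusted p = 0.0243). EIF4EBP1, the translation repressor 4E-BP1, had 8.97 and 8.95 at 20 mg/kg against 9.47 and 9.48 with vehicle (log2 -0.51, SE 0.02, limma adjusted p = 0.0112). In all 3 genes the 4 mg/kg arrays lay between the other groups. Without either 20 mg/kg array none of the 3 kept its call, and without vehicle replicate 2 both GDF15 and ALDH18A1 lost theirs, as GDF15 did without either 4 mg/kg array. With no level filter and with the replicate block GDF15 and ALDH18A1 were not called, nor was GDF15 in the 4 compared arrays alone. The mean of the probe sets of GDF15 was at -0.35, still called, and the next brightest probe set of ALDH18A1, also used when cross-hybridising ones were left out, at -0.45, not called. At 4 mg/kg none of the 17 passed limma's test and 8 (47.1%) had an unadjusted p under 0.05, beside 17.0% of all genes. The largest values were those of CTH, an enzyme of cysteine synthesis, at 1.30 (limma adjusted p = 0.423), and DDIT4, an inhibitor of mTORC1, at -0.91 (limma adjusted p = 0.194). CTH was at 0.57 without vehicle replicate 1 and 2.04 without vehicle replicate 2. Its log2 levels were 3.98 and 5.44 (vehicle), 5.75 and 6.28 (4 mg/kg) and 5.75 and 6.36 (20 mg/kg). CTH thus also held the highest value of the list at 20 mg/kg, 1.35, which did not pass.

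Upstream of ATF4, 1 of 15 measured genes of the eIF2 pathway rose at 20 mg/kg (6.67%, beside 4.33% of all genes called) and 14 did not pass, with a median log2 change of -0.18. That gene was EIF2AK3, which encodes PERK, with 10.57 and 10.69 at 20 mg/kg against 10.10 and 10.04 with vehicle (log2 0.56, SE 0.07, limma adjusted p = 0.0445). It lost its call without any 1 of the 6 arrays (0.51 to 0.62), in the 4 compared arrays alone, with no level filter and with the replicate block, and the mean of its probe sets was 0.28. At 4 mg/kg none passed limma's test and 3 (20%, beside 17.0% of all genes) had an unadjusted p under 0.05, with IMPACT, an inhibitor of GCN2 activation, at 0.58 (limma adjusted p = 0.461) and PPP1R15B, a subunit of the eIF2 phosphatase, at 0.42 (limma adjusted p = 0.162). IMPACT was at 0.92 without 4 mg/kg replicate 1, but 0.25 when replicate 2 of that dose was left out.

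Endoplasmic reticulum chaperones and other unfolded protein response genes had none of 18 past limma's test at either dose, and 7 at 20 mg/kg (38.9%, beside 24.2% of all genes) and 8 at 4 mg/kg (44.4%, beside 17.0%) had an unadjusted p under 0.05. At 20 mg/kg SEL1L, of the same degradation pathway as HERPUD1, was at 0.90 (limma adjusted p = 0.104), and the chaperone cofactor DNAJB11 at -0.55 (limma adjusted p = 0.0560). At 4 mg/kg SEL1L was at 0.72 (limma adjusted p = 0.230) and PDIA6, a disulfide isomerase, at -0.42 (limma adjusted p = 0.212). The next brightest probe set of SEL1L was at -0.031 for 20 mg/kg and -0.41 for 4 mg/kg.

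Of 7 further one-carbon and serine enzymes MAT2A, which makes S-adenosylmethionine, fell at 20 mg/kg, with 11.04 and 11.08 against 11.74 and 11.78 with vehicle (log2 -0.70, SE 0.09, limma adjusted p = 0.0475), and the other 6 did not pass (14.3% called, beside 4.33% of all genes). Its call was lost without either vehicle array or either 20 mg/kg array (-0.72 to -0.68), with no level filter and with the replicate block. Its next brightest probe set was at -1.32 (limma adjusted p = 0.0889) and the mean of its probe sets at -1.01 (limma adjusted p = 0.0511). At 4 mg/kg none passed limma's test and 2 (28.6%, beside 17.0% of all genes) had an unadjusted p under 0.05. GCSH, of the glycine cleavage system, was at 1.27 (limma adjusted p = 0.174) and the thymidylate synthase TYMS at 0.59 (limma adjusted p = 0.260). Under the alternative settings GCSH was as low as 0.28 and TYMS as low as 0.090. Without single arrays their lowest values were 0.92 and 0.40.

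Among synthetases outside the set, all 5 measured genes of the list of other cytosolic synthetases and their complex proteins had 20 mg/kg arrays below both vehicle arrays, beside 25.9% of all genes, with a median log2 change of -0.20. None of the 5 passed limma's test and 3 (60%, beside 24.2% of all genes) had an unadjusted p under 0.05. HARS1, for histidine, had 9.05 and 9.42 (vehicle), 8.67 and 8.78 (4 mg/kg) and 8.19 and 8.19 (20 mg/kg), a log2 change of -1.05 at 20 mg/kg (SE 0.14, limma adjusted p = 0.0508). It passed with the stricter level filter (limma adjusted p = 0.0360), after quantile normalization (limma adjusted p = 0.00876) and without vehicle replicate 1 (log2 -1.23, limma adjusted p = 0.0268), and did not without 20 mg/kg replicate 1 (limma adjusted p = 0.215). VARS1, for valine, had 7.88 and 7.52 at 20 mg/kg against 8.34 and 8.64 with vehicle (log2 -0.79, SE 0.21, limma adjusted p = 0.133). At 4 mg/kg none passed limma's test and 1 (20%, beside 17.0% of all genes) had an unadjusted p under 0.05, with HARS1 at -0.51 (limma adjusted p = 0.225) and VARS1 at -0.37 (limma adjusted p = 0.491). Without vehicle replicate 2 HARS1 was at -0.33 and VARS1 at -0.22, and VARS1 was also at -0.22 without 4 mg/kg replicate 1. Of 13 measured mitochondrial synthetases none passed limma's test at either dose, 0 at 20 mg/kg and 0 at 4 mg/kg had an unadjusted p under 0.05 (beside 24.2% and 17.0% of all genes), and the median at 20 mg/kg was -0.04. EARS2, for glutamate, and HARS2, for histidine, were at -0.67 and -0.41 there, and RARS2, for arginine, and EARS2 at -0.44 and -0.42 for 4 mg/kg. Leaving out 1 array moved each of these values by over 1.5 times. Without vehicle replicate 2 EARS2 was at -0.37 and HARS2 at -0.17 for 20 mg/kg, and EARS2 at -0.13 for 4 mg/kg. Without vehicle replicate 1 HARS2 was at -0.64 for 20 mg/kg and EARS2 at -0.72 for 4 mg/kg. RARS2 ran from -0.81 without 4 mg/kg replicate 2 to -0.079 without 4 mg/kg replicate 1, with -0.71 without vehicle replicate 1 and -0.17 without vehicle replicate 2.

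**Figure D4:**
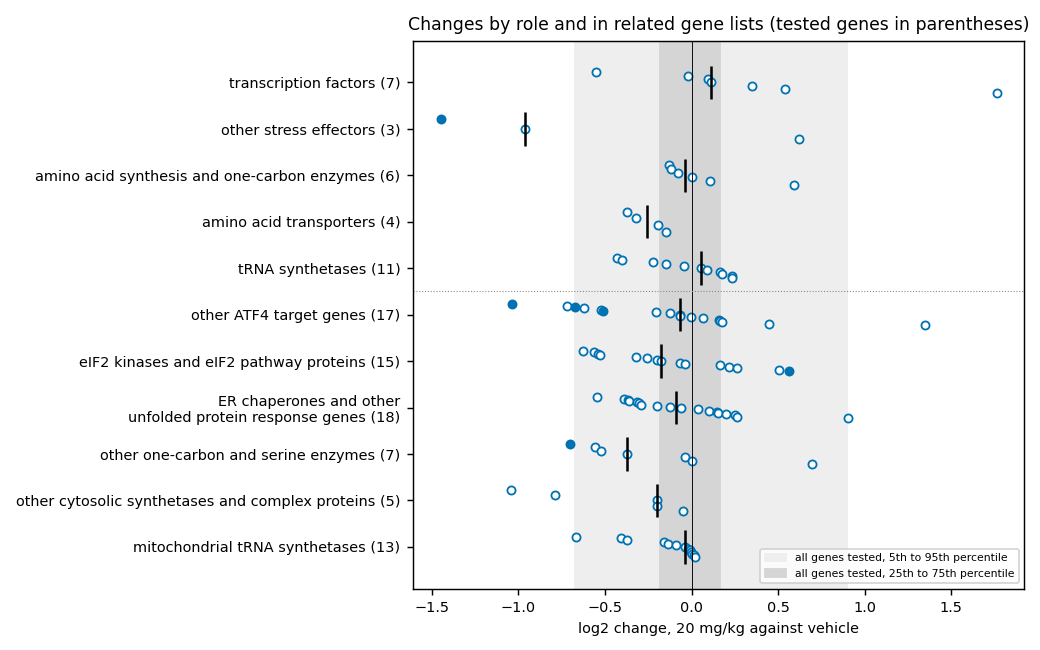
Log2 change at 20 mg/kg against vehicle for the tested genes of each role (above the dotted line) and of each related list (below it); a filled point passed the test at an adjusted p of 0.05, a black bar is the list's median, and grey bands give the middle and the wider range of all genes tested. The tRNA synthetases of the set cluster around 0, and the 5 genes of the list of other cytosolic synthetases and complex proteins all lie left of 0.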

How the data were processed

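Per the submitters' processing notes the authors used GCRMA and R 2.10.0, and they deposited linear intensity values for 54675 probe sets. GCRMA adjusts background by probe sequence, equalises array distributions and combines probes into 1 value. The sources used here do not say which arrays were processed jointly. Values were converted to log2. The lowest intensity, 4.578 (log2 2.19), was shared by 40.0% to 40.8% of probe sets per array, and differences near it are understated.

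Gene names came from the platform's annotation, possibly outdated (41097 probe sets with 1 gene, 1801 with several, 11777 with none listed). The brightest single-gene probe set on average stood for each gene. limma 3.58.1 in R 4.3.3 fitted 1 model to the 6 arrays across all 10271 genes, two-sided, with Benjamini-Hochberg adjustment over all genes in each of 3 comparisons and a threshold of 0.05. The procedure was run on simulated data with independent noise and known changes. That run checked the size of the estimated changes, and not the rate of false calls under ties or floor values. The fit to the 6 arrays had 3 residual and 0.723 prior degrees of freedom, and each SE draws on all 3 groups. With 2 arrays a group their number limits the precision.

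The genes and lists were chosen with earlier results of these data known. Any of the 34 genes could be named. Of each related list, up to 4 genes that passed, by size of change, or the 2 largest changes where none passed, were named for the comparisons with vehicle. NUPR1, first also written among further ATF4 targets, was kept only in the set. No sequences are printed, and promoter motifs were not analysed here.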

Additional observations from a re-analysis of the deposited data

How the results depend on the processing

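The count of 1 gene of the set called at 20 mg/kg against vehicle, STC2, was also 1 with other choices of probe set, the stricter filter and log2(value + 16). It was 0 with no level filter, with the 4 compared arrays only and with the replicate block. There 57 of 19775, 136 of 10271 and 93 of 10271 genes passed. The set's count was 4 after a further quantile normalization and 5 with centred arrays. There 1536 and 1958 of 10271 genes passed, against 445 in the main fit. In fits added after seeing the data the set's count was 2 without genes tied in all groups, where 819 of 9740 genes passed. Without genes tied in any group it was 4 of 26, where 1242 of 6955 genes passed. Leaving out single arrays gave 0 to 3, the highest (SLC3A2, SLC7A5 and TRIB3) without vehicle replicate 1. For 4 mg/kg against vehicle the count of 0 became 1 with centred arrays (STC2) and 0 to 1 without single arrays (ATF4, without vehicle replicate 1). For 20 against 4 mg/kg it became 1 after quantile normalization (PSAT1) and 2 with centred arrays (NUPR1 and PSAT1), and stayed 0 without any single array. Over all genes, the calls for 4 mg/kg against vehicle rose from 6 in the main fit to 766 with centred arrays. For 20 against 4 mg/kg they rose from 38 to 333 after quantile normalization and to 494 with centred arrays. The causes were not tested. Deviations of arrays with the same replicate number correlated across genes at 0.15 (4 mg/kg with vehicle), -0.12 (20 mg/kg with vehicle) and 0.13 (20 with 4 mg/kg). With 2 arrays a group this cannot show whether some arrays share a batch, and the labels do not say what the number stands for. The replicate block gave 0 calls in the set in all 3 comparisons. Of 851 values of 51 named changes under the alternatives, 15 changed direction, none of a called change. With the next brightest probe set these were CEBPG (0.22), EARS2 (0.017) and SEL1L (-0.031) at 20 mg/kg, and PSAT1 (-0.016), PSPH (0.81), EPRS1 (-0.037), IMPACT (-0.31), SEL1L (-0.41) and EARS2 (0.017) at 4 mg/kg. With the mean of probe sets they were PSPH (0.20), EPRS1 (-0.013) and SEL1L (-0.0080) at 4 mg/kg, and with cross-hybridising probe sets left out PSPH (0.81) and PDIA6 (0.23). ATF4 at 20 mg/kg ran from -0.12 to 0.30 without single arrays. Of 14 genes of the set with a second probe set above the filter, 7 kept the sign of the difference between 20 mg/kg and vehicle. In that comparison 4 turned it and 3 had a probe set at 0. For 4 mg/kg against vehicle 4 kept the sign, 8 turned it and 2 had a probe set at 0. For 20 against 4 mg/kg 5 kept it, 5 turned it and 4 had a probe set at 0. CHAC1 and ALDH1L2, with 1 value in all arrays, allow no comparison.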
